A study of Homo sapiens with 4 samples.

Results

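Oxidative phosphorylation is the work of 5 protein complexes of the inner mitochondrial membrane that oxidise NADH and succinate and make ATP. The 86 genes described here carry symbols of its nuclear subunit genes. They were chosen by symbol among 19126 protein-coding genes on chromosomes 1 to 22: NDUFA, NDUFB, NDUFC, NDUFS and NDUFV genes (complex I, NADH dehydrogenase, 36 genes), SDHA to SDHD (complex II, succinate dehydrogenase, 4 genes), UQCR genes and CYC1 (complex III, cytochrome bc1, 10 genes), COX4 to COX8 genes (complex IV, cytochrome c oxidase, 16 genes) and ATP5 genes (complex V, ATP synthase, 20 genes). Assembly factors of the NDUFAF family were left out. The symbols also took in an inhibitor (ATP5IF1), a factor of supercomplex assembly (COX7A2L), read-through genes and gene copies such as UQCRHL. The rule reads symbols and no peak value, and the gene family was taken up with earlier results of these data known.

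The measurements are 2 peak lists of H2AK119ub, histone H2A with a single ubiquitin on a lysine near its end, from chromatin immunoprecipitation and sequencing. One list came from untreated H1 cells, an established line of human embryonic stem cells, and the other from H1 cells given an shRNA against YTHDF1, a reader of methylated adenosine in messenger RNA. Both cultures were grown in mTeSR1 medium. With 1 H2AK119ub library in each group, no difference could be set against a replicate spread, none was tested, and the sequencing depth of the libraries is unknown. The lists held 32451 wild-type and 34097 knockdown peaks on these chromosomes, which covered 194 and 167 Mb. Peaks of a histone mark measure no RNA, so neither the stem cell identity nor the loss of YTHDF1 was checked, and nothing below gives the expression of a subunit gene.

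H2AK119ub is written by Polycomb repressive complex 1 and is best known from the silent, CpG-rich promoters of developmental genes. The respiratory chain is built from proteins of both the nuclear and the mitochondrial genome, and the nuclear genes are active in nearly every cell type. Many of their promoters hold binding motifs of NRF1 and of ETS factors such as GABPA, which are known activators of these genes. A few subunits exist as pairs of isoforms, 1 used widely and the other in muscle, lung or testis.

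The promoters below show the DNA on which the mark differed or did not differ between the lists. Each run is the 250 bases just before the annotated gene start, 5′ to 3′ on the gene's strand, in GRCh38.p14 coordinates from RefSeq. Capitals mark 3 motifs on either strand: GCGC, any base, then TGCGC (NRF1), CCGGAAG (ETS) and GGGCGGG (SP1). AAGATGGC (YY1) was searched too and is in none of them. SDHB, SDHD, NDUFS1 and COX7C had a peak over the promoter in the knockdown list alone, ATP5MC1 and NDUFA10 in the wild-type list alone, SDHA, UQCR11 and COX6A2 in both, and NDUFB4 in neither.
SDHB, chr1:17054033-17054282, minus strand: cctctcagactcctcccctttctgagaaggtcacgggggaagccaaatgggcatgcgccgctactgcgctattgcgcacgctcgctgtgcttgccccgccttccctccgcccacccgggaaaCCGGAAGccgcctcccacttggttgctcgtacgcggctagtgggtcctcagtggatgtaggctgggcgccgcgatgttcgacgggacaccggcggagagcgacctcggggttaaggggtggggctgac
SDHD, chr11:112086623-112086872, plus strand: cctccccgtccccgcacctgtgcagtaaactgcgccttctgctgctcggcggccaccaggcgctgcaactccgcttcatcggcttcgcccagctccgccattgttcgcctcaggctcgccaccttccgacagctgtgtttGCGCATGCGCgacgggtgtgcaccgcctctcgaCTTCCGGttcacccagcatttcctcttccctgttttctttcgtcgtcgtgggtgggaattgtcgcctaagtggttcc
NDUFS1, chr2:206159445-206159694, minus strand: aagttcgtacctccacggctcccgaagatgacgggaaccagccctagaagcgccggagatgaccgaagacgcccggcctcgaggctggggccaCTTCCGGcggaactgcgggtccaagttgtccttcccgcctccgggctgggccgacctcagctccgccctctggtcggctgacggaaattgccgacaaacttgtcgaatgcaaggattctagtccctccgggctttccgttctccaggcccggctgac
COX7C, chr5:86617691-86617940, plus strand: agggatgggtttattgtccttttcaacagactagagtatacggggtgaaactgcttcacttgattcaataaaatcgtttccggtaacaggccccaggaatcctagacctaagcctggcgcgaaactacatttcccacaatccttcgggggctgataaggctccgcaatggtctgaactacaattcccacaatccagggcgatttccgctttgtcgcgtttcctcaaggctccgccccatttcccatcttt
ATP5MC1, chr17:48892537-48892786, plus strand: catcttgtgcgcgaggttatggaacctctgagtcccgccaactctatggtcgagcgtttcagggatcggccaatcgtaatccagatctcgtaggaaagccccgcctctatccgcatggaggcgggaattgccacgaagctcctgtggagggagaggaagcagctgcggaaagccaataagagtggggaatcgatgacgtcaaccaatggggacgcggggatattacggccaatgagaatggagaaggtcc
NDUFA10, chr2:240025343-240025592, minus strand: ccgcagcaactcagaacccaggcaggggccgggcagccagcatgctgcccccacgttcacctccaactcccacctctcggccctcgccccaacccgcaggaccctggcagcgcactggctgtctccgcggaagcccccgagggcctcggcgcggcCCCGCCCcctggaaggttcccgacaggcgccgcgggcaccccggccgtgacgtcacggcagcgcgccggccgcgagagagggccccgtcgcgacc
SDHA, chr5:218070-218319, plus strand: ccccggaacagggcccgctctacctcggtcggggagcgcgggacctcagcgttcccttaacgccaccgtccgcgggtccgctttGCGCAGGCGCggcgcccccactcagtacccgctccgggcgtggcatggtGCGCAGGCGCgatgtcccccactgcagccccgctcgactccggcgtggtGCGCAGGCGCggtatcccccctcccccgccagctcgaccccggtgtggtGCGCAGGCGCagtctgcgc
UQCR11, chr19:1605463-1605712, minus strand: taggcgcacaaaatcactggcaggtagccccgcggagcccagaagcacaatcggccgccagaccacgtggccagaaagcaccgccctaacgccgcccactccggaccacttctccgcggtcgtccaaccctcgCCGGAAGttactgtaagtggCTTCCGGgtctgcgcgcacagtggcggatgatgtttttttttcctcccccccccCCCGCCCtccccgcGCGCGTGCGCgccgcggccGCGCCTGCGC
COX6A2, chr16:31428361-31428610, minus strand: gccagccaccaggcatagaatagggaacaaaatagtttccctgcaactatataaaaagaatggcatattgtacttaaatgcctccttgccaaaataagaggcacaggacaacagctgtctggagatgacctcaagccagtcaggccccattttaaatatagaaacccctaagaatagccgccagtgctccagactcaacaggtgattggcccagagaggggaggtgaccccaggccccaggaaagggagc
NDUFB4, chr3:120596086-120596335, plus strand: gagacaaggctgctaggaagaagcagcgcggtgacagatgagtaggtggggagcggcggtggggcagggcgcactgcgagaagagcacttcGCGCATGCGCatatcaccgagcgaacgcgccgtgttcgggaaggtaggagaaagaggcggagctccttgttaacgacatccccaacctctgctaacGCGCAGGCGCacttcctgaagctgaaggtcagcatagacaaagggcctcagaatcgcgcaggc
The 4 NRF1 matches in SDHA were spaced 49 bases apart, with their first bases 166, 117, 68 and 19 bases before the start. UQCR11 held 2 NRF1 matches, 2 ETS matches and 1 SP1 match. The COX6A2 promoter, of a muscle isoform, held 1 CpG dinucleotide, against 35 in SDHA.

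Subunit genes carried H2AK119ub peaks near their ends as often as protein-coding genes in general. Here a marked gene is one with any base of a peak no more than 2 kb from its annotated start or end. In the wild type 61 of the 86 genes were marked (70.9%), where 71% of all protein-coding genes were. In the knockdown 63 were marked (73.3%), against 71.1%. Both lists marked 55 members (64%, against 66.3% of all genes) and neither list marked 17 (19.8%, against 24.2%). The wild-type list alone marked 6 members (6.98%, against 4.73%) and the knockdown list alone 8 (9.3%, against 4.84%).

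**Figure D1:**
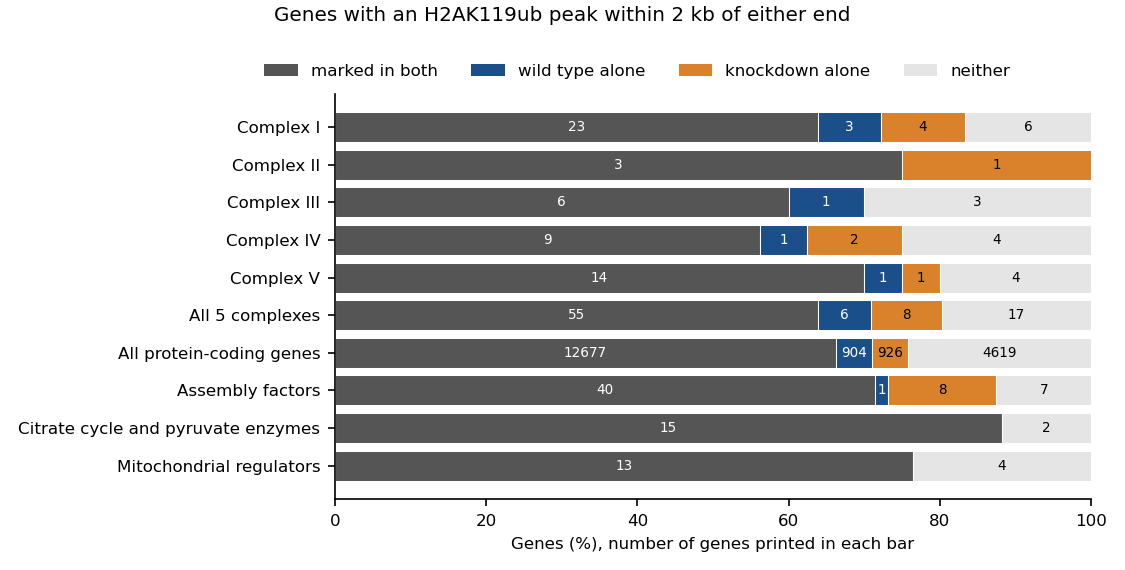
Share of genes with an H2AK119ub peak within 2 kb of either end (x axis, percent), for each complex, all 86 subunit genes, all protein-coding genes and 3 related lists; colours give the list or lists with a peak and printed numbers are genes. Marking in both lists covers 55 of 86 subunit genes and 12677 of 19126 genes in all.

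Peaks of the wild-type list alone marked NDUFA10, NDUFA2, NDUFB6, UQCR10, COX7A2L and ATP5MC1. Peaks of the knockdown list alone marked NDUFA5, NDUFB9, NDUFS1, NDUFS3, SDHD, COX6C, COX7C and ATP5MC3. The score of a peak is the authors' own value and is used here only to rank peaks within a list. The widest peak behind these 14 calls was the 5.2 kb wild-type peak at NDUFA2. By score, the highest of the wild-type peaks was that at NDUFA10, at percentile 57.8 of its list, and the highest of the knockdown peaks that at NDUFA5, at percentile 58.8. The NDUFS1 peak stood at percentile 12.5 of the knockdown scores. In 6 of the 14 genes (NDUFA2, NDUFB6, COX7A2L, ATP5MC1, NDUFA5 and NDUFS3) the other list had a peak within 10 kb. The NDUFB6 call turned on the window, since the knockdown peak nearest to it lay 2001 bp from the gene and the wild-type peak 1401 bp. NDUFA5 was marked by a knockdown peak 1997 bp away, with the nearest wild-type peak at 2597 bp, and this peak also covered the start of the neighbouring gene IQUB. At COX6C and ATP5MC3 the nearest wild-type peaks were 249.9 and 170.3 kb away, and at NDUFA10 the nearest knockdown peak was 109.9 kb away.

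The catalytic core subunits of complex I hold the flavin and the iron-sulfur clusters, and their genes differed in where the peaks lay. NDUFV1, the subunit that binds the flavin and NADH (chromosome 11, 67606936 to 67612554), had 17.6 kb in peaks in wild-type cells and 12.6 kb in the knockdown within 10 kb of its ends. The wild-type peak over its start was 7.4 kb wide, and the knockdown showed peaks of 4.0 and 2.0 kb in its place. NDUFV2, an iron-sulfur subunit (chromosome 18, 9102699 to 9134341), had 2.8 kb in the wild type, all of it beyond the far end. In the knockdown it had 9.4 kb, with a 4.4 kb peak over the start. The wild-type peak beyond the far end also covered the start of ANKRD12, as did a 5.0 kb knockdown peak there. NDUFS1, the largest iron-sulfur subunit (chromosome 2, 206114817 to 206159444), had no base in peaks in wild-type cells and 2.6 kb in the knockdown, in 1 peak over the start that it shares with EEF1B2 on the opposite strand. NDUFS3 had 5.56 against 12.4 kb, with 71.5% of its body in 2 knockdown peaks and none in wild-type peaks. These 3 core genes thus had a peak at the start in the knockdown list and not in the wild-type list.

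NDUFS8 and NDUFS7, also core subunits, were marked in both lists. NDUFS8 had 15.7 kb in wild-type cells and 10.8 kb in the knockdown, and the peak over its start was 8.4 kb wide in wild-type cells and 2.4 kb in the knockdown. NDUFS7, which carries the last cluster of the chain (chromosome 19), had 25.6 and 26.7 kb, among the longest of all members. A peak of 27.6 kb in wild-type cells and 22.6 kb in the knockdown lay over its far end and the start of DAZAP1.

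The accessory subunits of complex I spanned the whole range of coverage. NDUFA13 (chromosome 19) had 27.0 kb in the wild type, the longest of all members, and 23.4 kb in the knockdown. Its far end lay in a wild-type peak of 32.2 kb that also covered the starts of CILP2 and YJEFN3. NDUFA3 had 20.5 and 13.5 kb. Its whole body lay in wild-type peaks, and 15.8% of it in the knockdown peak. NDUFA11, NDUFA7, NDUFB10 and NDUFA6 had 17.3 to 23.8 kb in wild-type cells and 17.6 to 24.2 kb in the knockdown. At NDUFB10 a wild-type peak of 45.4 kb faced 5 knockdown peaks, which covered 91.6% of its span. The widest of them, of 28 kb, began 4.43 kb from the gene, and those within 2 kb of it were 5.8 and 3.0 kb wide. NDUFB10 had 20.04 kb in wild-type cells and 17.6 kb in knockdown cells. NDUFB8 had 7.0 and 10 kb, and NDUFV3 3.0 and 6.4 kb. NDUFA10, an accessory subunit related to nucleoside kinases, had 4.0 kb in 1 wild-type peak over its start and none in the knockdown. NDUFA2 had 7.2 and 6.4 kb, with 78.0% of its body in a wild-type peak and none in knockdown peaks.

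At the other extreme, NDUFA9, NDUFB3, NDUFB4, NDUFB5 and NDUFS4 had no base in peaks within 10 kb of their ends in either list. Deeper inside NDUFA9, 6.19% of the body lay in a wild-type peak and none in knockdown peaks. NDUFA12 had 2.0 kb in the knockdown alone, more than 2 kb from its ends, so it was marked in neither. NDUFB9 had 2.2 kb in the knockdown alone. NDUFAB1, the mitochondrial acyl carrier protein, had 4.2 kb in wild-type cells and 2.6 kb in the knockdown. It and the remaining accessory genes NDUFA8, NDUFB1, NDUFB2, NDUFB7, NDUFC1, NDUFC2, NDUFC2-KCTD14, NDUFS5 and NDUFS6 were marked in both lists, with 2.45 to 15.7 kb. The same peaks marked NDUFC2 and its read-through gene NDUFC2-KCTD14, so the pair does not stand for separate peaks. Over the 36 genes of complex I the mean covered length was 8.24 kb in wild-type cells and 7.89 kb in the knockdown. The covered length was longer in the knockdown at 14 genes, shorter at 17 and equal at 5. Among all protein-coding genes 28.4% were longer, 50.1% shorter and 21.4% equal.

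The 4 genes of complex II, which passes electrons from succinate to ubiquinone and is also an enzyme of the citrate cycle, differed in direction. SDHB, its iron-sulfur subunit (chromosome 1, 17018722 to 17054032, minus strand), had 8.91 kb in wild-type cells and 20.1 kb in the knockdown, the largest increase of all members. The start of SDHB lay in a 2.8 kb knockdown peak and in no wild-type peak, while the wild-type peak that marked it was at the far end of the gene. SDHB was the exception among the 55 genes marked in both lists: in the other 54 the wild-type and knockdown marking peaks touched each other. This turned on the 2 kb window. The far-end wild-type peak, 37.0 to 39.4 kb from the start, overlapped a knockdown peak at 37.4 to 47.8 kb. That knockdown peak lay just over 2 kb from the gene end and so did not count as marking. None of the SDHB body lay in wild-type peaks, and 19.4% of it in knockdown peaks. SDHD, a membrane anchor (chromosome 11, 112086873 to 112095794), had no base in peaks in wild-type cells and 2.6 kb in the knockdown, again in 1 peak over the start. SDHA, the flavoprotein, had 8.6 and 3.4 kb. Its start was in a peak of 4.2 kb in wild-type cells and 3.4 kb in the knockdown. A wild-type peak of 4.4 kb at the far end, which also covered the start of PDCD6, had no knockdown counterpart. SDHC, the other anchor, had 8.6 and 6.4 kb.

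**Figure D2:**
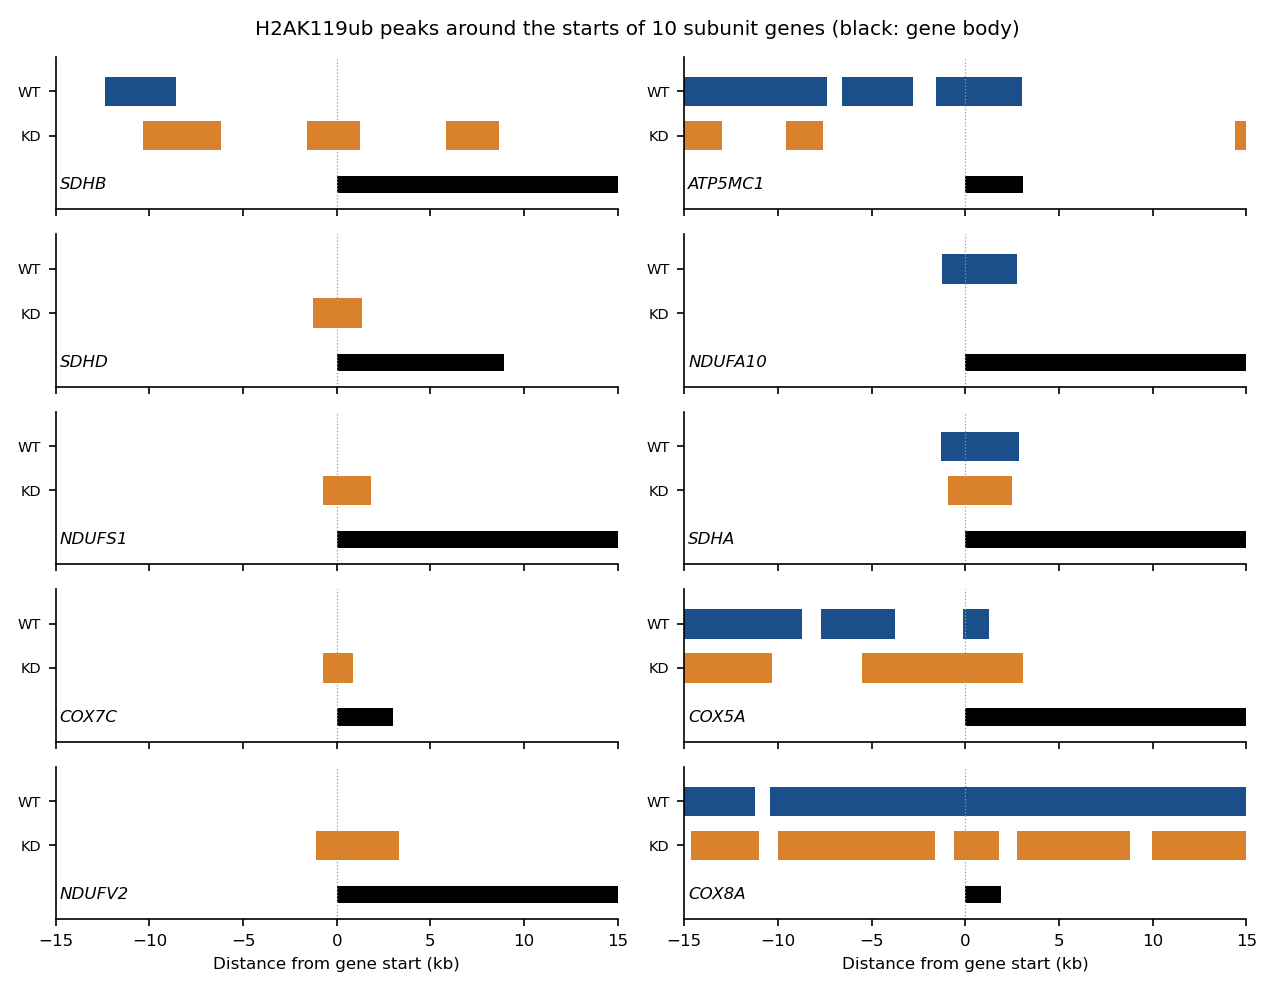
H2AK119ub peaks of the wild-type (WT, blue) and YTHDF1 knockdown (KD, orange) lists around the starts of 10 subunit genes; the x axis is the distance from the start in kb with the gene running to the right (black), and peaks are cut at 15 kb. SDHB, SDHD, NDUFS1, COX7C and NDUFV2 show a knockdown peak over the start and no wild-type peak there, ATP5MC1 and NDUFA10 the reverse, and COX8A a 198 kb wild-type peak over several knockdown peaks, the widest of which, 157 kb, begins beyond the plotted range.

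The 10 genes of complex III, which passes electrons from ubiquinol to cytochrome c, had means of 7.24 kb in wild-type cells and 5.55 kb in the knockdown. The covered length was shorter in the knockdown at 7 of them, longer at none and 0 kb in both lists at 3, where 50.1% of all genes were shorter, 28.4% longer and 21.4% equal. UQCR11, a small subunit (chromosome 19), had 20.5 and 15.6 kb, and CYC1, which encodes cytochrome c1 (chromosome 8), 20.1 and 16.3 kb. The peak over UQCR11 was itself wider in the knockdown, at 10 against 6.6 kb. The core protein genes UQCRC1 and UQCRC2 had 13.0 and 12.4 kb and 3.6 and 1.8 kb. UQCRH, the hinge protein, had 9.2 and 6.6 kb. Its start lay in a wild-type peak and just outside a knockdown peak of 6.6 kb. UQCRQ had 4.2 and 2.8 kb. UQCR10 had 1.8 kb in wild-type cells and none in the knockdown. UQCRB, UQCRHL (an intronless copy of UQCRH) and UQCRFS1, which encodes the Rieske iron-sulfur protein, had no base in peaks in either list.

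In complex IV several isoforms of restricted use had more of their surroundings in peaks than the widely used isoform. COX4I2, the lung isoform of subunit 4 (chromosome 20), had 18.6 kb in wild-type cells and 19.2 kb in the knockdown, against 10.5 and 11.5 kb for the widely used COX4I1. COX6A2, the heart and muscle isoform of subunit 6A, had 12.8 and 9.0 kb, against 3.2 and 2.4 kb for COX6A1, which was marked in neither list. COX6B2, the testis isoform of subunit 6B (chromosome 19), had 24.1 and 23.8 kb, against 15.9 and 13.0 kb for COX6B1. COX6B2 lay whole in a peak of 20 kb in wild-type cells and 23 kb in the knockdown, both at the score ceiling of 1000, which also covered the start of KMT5C. COX7A1, the muscle isoform of subunit 7A (chromosome 19), had 13.1 and 10.9 kb, against 3.4 and 0 kb for COX7A2 (chromosome 6). COX7A2L, a factor of supercomplex assembly (chromosome 2), had 6.0 and 1.0 kb. All genes of chromosome 19 had means of 15.04 and 12.5 kb, above the values of COX7A1. The part of chromosome in this pair was not tested.

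Other genes of restricted use did not all follow this order. COX8C, the testis isoform of subunit 8, had 5.42 kb in wild-type cells and none in the knockdown, against 21.9 and 18.7 kb for the widely used COX8A. COX7B2 had no base in peaks in either list, and UQCRHL and UQCRH were given above. ATP5MGL, a copy of ATP5MG, did follow it by covered length, with 6.6 and 5.6 kb against 3.6 kb in both lists for ATP5MG. By peaks within 2 kb it did not, since ATP5MGL was marked in neither list and ATP5MG in both. The bodies of COX4I2, COX6A2, COX6B2 and COX7A1 lay wholly inside peaks in both lists, and that of COX8C in none. These pairs were picked for their known use in tissues and get no test.

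Among the widely used complex IV genes, COX5B and COX5A had longer covered lengths in the knockdown. COX5B had 2.6 and 9.2 kb, and the peak over it measured 2.6 and 4.0 kb. COX5A had 7.08 and 8.6 kb, and the peak over its start 1.4 and 8.6 kb. COX6C and COX7C had none in wild-type cells and 3.4 and 1.6 kb in the knockdown. COX8A (chromosome 11, 63974620 to 63976543) lay in the widest peak of any member, of 198 kb in the wild type, which also covered the starts of FLRT1 and OTUB1. In the knockdown list 6 peaks covered 95.4% of that span. Those near the ends of COX8A were 8.4, 2.4 and 6.0 kb wide, and the widest, of 157 kb, began 17.3 kb from the gene.

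In ATP synthase the largest differences were at the genes of subunits c and f. The c subunit, which forms the rotating ring, has 3 genes that encode the same mature protein. ATP5MC1 (chromosome 17, 48892787 to 48895871) had 11.0 kb in wild-type cells and 2.0 kb in the knockdown, and 97.7% of its body lay in wild-type peaks and none in knockdown peaks. ATP5MC3 went the other way, with none in wild-type cells and 2.4 kb in the knockdown. ATP5MC2 had 4.0 and 5.0 kb, in peaks over its inner start more than 2 kb from the gene ends, so it was marked in neither list. ATP5MF, which encodes subunit f, had 19.6 and 10 kb. The same 12.0 kb wild-type and 4.4 kb knockdown peaks marked ATP5MF and its read-through gene ATP5MF-PTCD1.

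The catalytic head of the enzyme holds the alpha to epsilon subunits. ATP5F1A and ATP5F1B, the alpha and beta subunits, had 8.35 and 12.8 kb and 13.0 and 11.0 kb. ATP5F1D, the delta subunit, had 22.3 and 22.2 kb within the window, while the peak over it was 46.6 kb wide in wild-type cells and 24.8 kb in the knockdown. ATP5ME, subunit e of the membrane part, had 20.4 and 18.6 kb, in peaks of 31.0 and 26.4 kb at the score ceiling. ATP5IF1, the inhibitor of ATP hydrolysis, had 3.2 and 7.5 kb, and its promoter window met a knockdown peak and no wild-type peak. A wild-type peak began 0.077 kb after its start, just past that window. ATP5PO, the stalk subunit OSCP, had 5.55 and 0.948 kb and was marked in neither list, and ATP5PF had no base in peaks. The rest, ATP5F1C, ATP5F1E, ATP5MG, ATP5MJ, ATP5MK, ATP5PB and ATP5PD, were marked in both lists, with 2.0 to 15.8 kb. Over the 20 genes the means were 8.83 and 7.54 kb, with 5 longer in the knockdown, 12 shorter and 3 equal. The shares of all protein-coding genes were 28.4%, 50.1% and 21.4%.

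**Figure D3:**
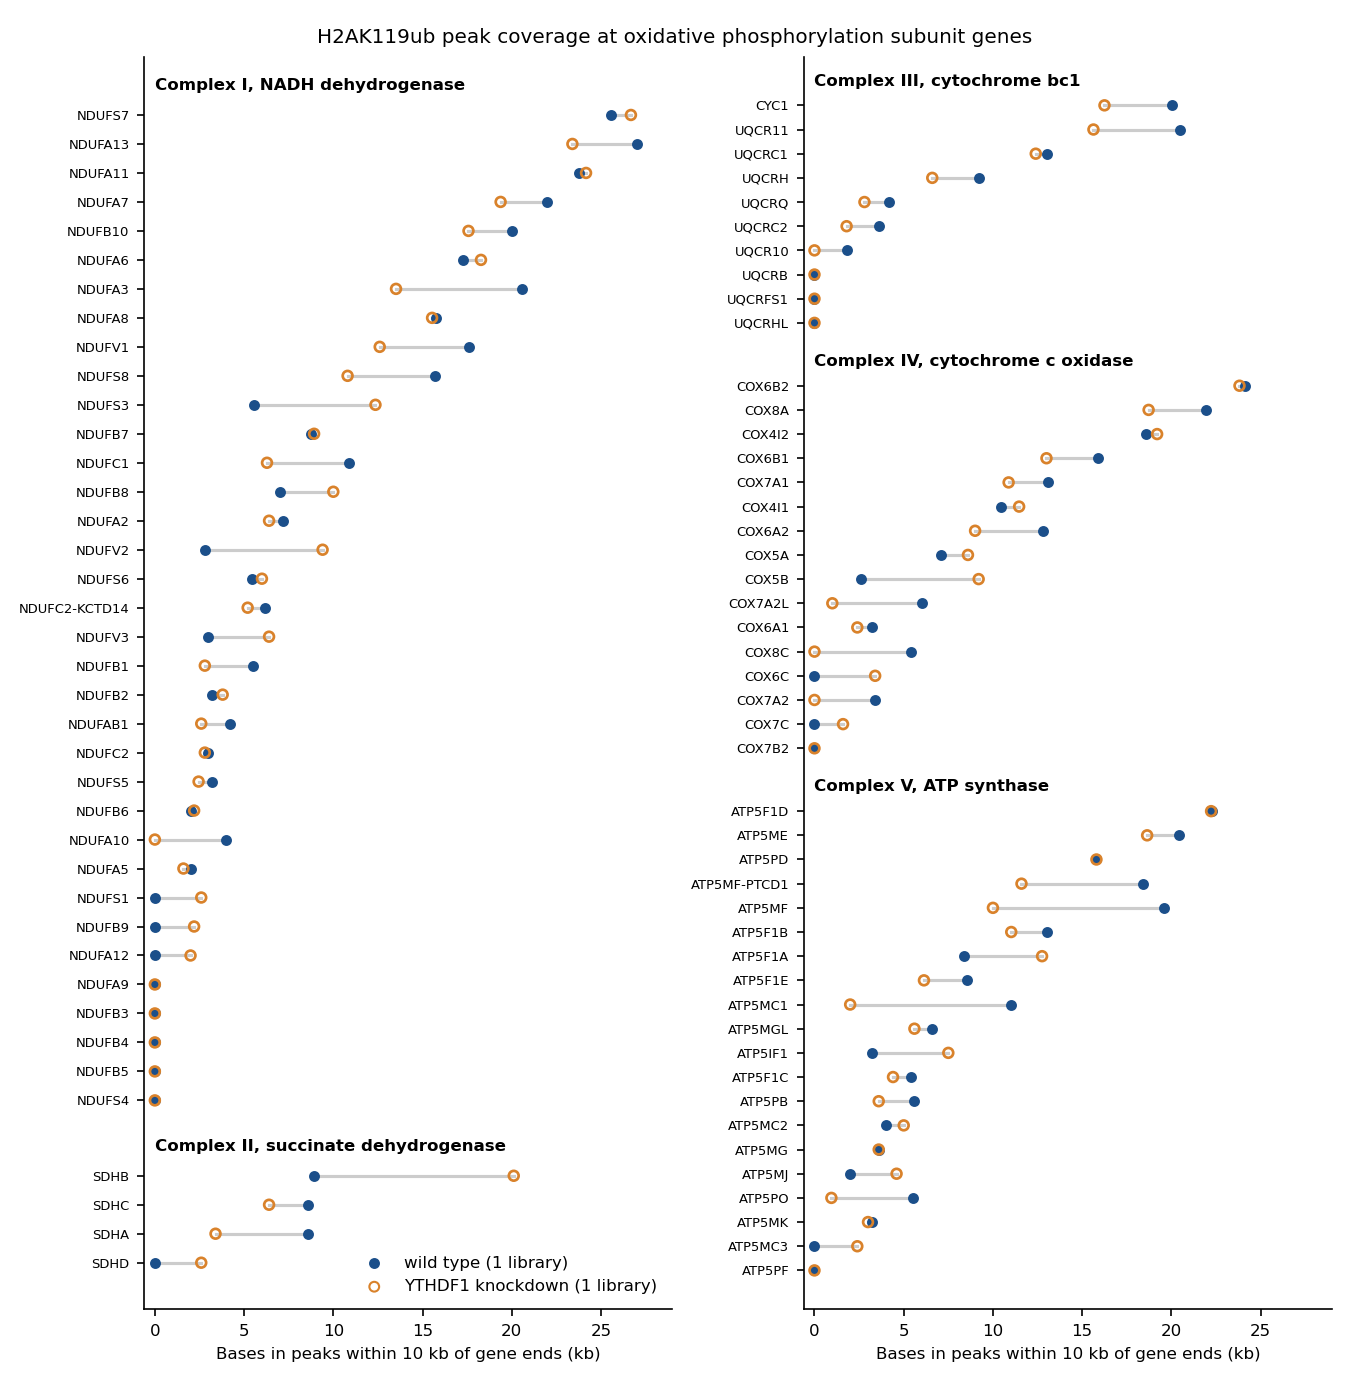
Bases in H2AK119ub peaks within 10 kb of either end (x axis, kb) for subunit genes, 1 of the 86 left out, grouped by complex and ordered by the sum of both libraries; filled blue points are the wild type, open orange points the YTHDF1 knockdown, 1 library each, joined by a grey line. NDUFA13 and NDUFS7 stand highest in complex I, SDHB shows the largest increase and ATP5MF the largest decrease, and 10 genes are at 0 kb in both lists.

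Over all 86 members the mean covered length was 8.33 kb in wild-type cells and 7.62 kb in the knockdown, a difference of -0.711 kb or -8.54%. Over all protein-coding genes the means were 9.07 and 7.95 kb, a difference of -1.12 kb or -12.3%. Overlapping windows were merged, so a short gene had a smaller window. The median gene length was 10.2 kb for members and 24.5 kb for all genes, so lengths in kb rest on unlike windows. The part of window size in these values was not tested. Median lengths of the members were 5.58 and 5.80 kb, and of all genes 6.0 and 5.4 kb. The median difference per gene was -0.252 kb for members and -0.064 kb for all genes. The covered length was shorter in the knockdown at 47 members (54.7%, against 50.1% of all genes), longer at 27 (31.4%, against 28.4%) and equal at 12 (14%, against 21.4%). Differences of at least 1 kb were decreases at 36 members (41.9%, against 41.5%) and increases at 21 (24.4%, against 20.8%). After ATP5MF and ATP5MC1, the largest decreases were at NDUFA3 (-7.03 kb), ATP5MF-PTCD1 (-6.8 kb), COX8C (-5.42 kb) and SDHA (-5.2 kb). After SDHB, the largest increases were at NDUFS3 (6.8 kb), COX5B (6.6 kb), NDUFV2 (6.6 kb), ATP5F1A (4.4 kb) and ATP5IF1 (4.3 kb). The 10 genes with no base in peaks within 10 kb of their ends in either list made up 11.6% of members, against 19% of all genes.

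Strand and start positions were matched for 68 of the 86 members, which showed where along the gene the mark lay. Peaks gathered at the start. In the wild type 45 of the 68 had a peak within 2 kb of the start (66.2%, against 68.3% of 15101 genes) and in the knockdown 47 (69.1%, against 69%). At the far end the counts were 30 (44.1%, against 34.3%) and 26 (38.2%, against 31.2%). Members were short genes, with a median length of 10.2 kb against 24.5 kb for all genes; the part of gene length in the far-end share was not tested. A peak overlapped the 300 bp promoter window, from 250 bases before to 50 bases after the start, at 45 members in the wild type (66.2%, against 66.9%) and 48 in the knockdown (70.6%, against 67.7%).

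By promoter, 40 members had a peak in both lists (58.8%, against 61.1% of all genes) and 15 in neither (22.1%, against 26.5%). The 5 with a promoter peak in the wild type alone (7.35%, against 5.81%) were NDUFA10, NDUFA2, UQCRH, COX7A2 and ATP5MC1. The 8 with one in the knockdown alone (11.8%, against 6.66%) were NDUFS1, NDUFS3, NDUFV2, SDHB, SDHD, COX7A2L, COX7C and ATP5IF1. COX7A2L stands in both kinds of call: it was marked at its far end in the wild type, and an inner start had a peak in the knockdown alone. A wild-type peak 7.957 to 9.556 kb from the gene start overlapped that knockdown peak, at 7.757 to 8.756 kb. At ATP5IF1 a wild-type peak began 0.077 kb after the start, just past the promoter window. The promoter calls of COX7A2L and ATP5IF1 thus turned on the window edge.

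Along 100 positions around the start, fewer members lay in knockdown than in wild-type peaks at 55, more at 32 and as many at 13. Over all genes the knockdown share was lower at 94 positions and higher at 6. The distances given next were picked after the profile was seen. At 0.5 kb before the start, 38 of 68 members lay in a wild-type peak (55.9%) and 46 in a knockdown peak (67.7%), where all genes stood at 62.5% and 62.6%. At 3.9 kb before the start, 18 members (26.5%) lay in a wild-type peak and 9 (13.2%) in a knockdown peak, against 25.1% and 21.8% of all genes. At 3.1 kb after the start the members were 18 and 11, and the shares of all genes 32.9% and 28.0%. Other distances went the other way in members: at 5.9 kb after the start 13 lay in a wild-type and 17 in a knockdown peak, where all genes stood at 20.9% and 17.2%.

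**Figure D4:**
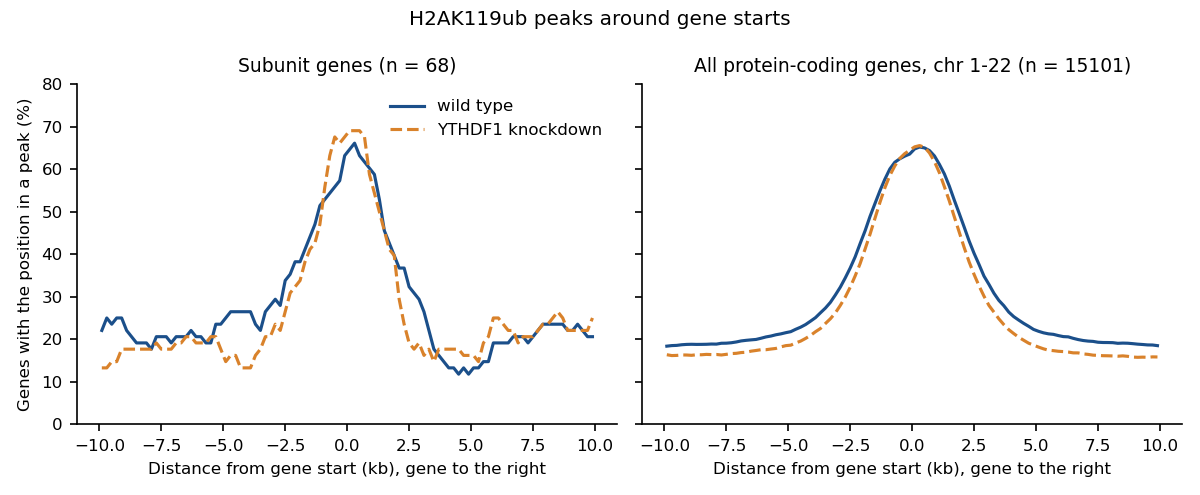
Percent of genes whose position lies in an H2AK119ub peak (y axis) by distance from the gene start (x axis, kb, gene to the right), for the 68 subunit genes with a matched start (left) and all 15101 protein-coding genes with one (right); the solid line is the wild type and the dashed line the knockdown. Both sets peak at the start, with 66.2% and 69.1% of subunit genes in a peak 0.3 kb after it.

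The peaks over members' promoters were narrower than those over promoters in general. Their median width was 4.2 kb in the wild type (46 peaks) and 3.6 kb in the knockdown (48 peaks), against 5.4 and 4.8 kb over the promoters of all protein-coding genes. Peaks under 5 kb made up 56.5% and 68.8% of them, against 42.9% and 52.1%. Median scores were 21.2 and 20.2, against 35.7 and 28.6. Among these promoter peaks, 5 in the wild type (10.9%, against 6.6%) and 2 in the knockdown (4.17%, against 4.31%) were 20 kb or wider. Counted by gene and at either end, wide peaks were about as frequent near members as near genes in general. In the wild type 8 members (9.3%, against 9.06% of all genes) had a peak of 20 kb or more within 2 kb of an end (NDUFA13, NDUFA7, NDUFB10, NDUFS7, COX6B2, COX8A, ATP5F1D and ATP5ME), and in the knockdown 5 (5.81%, against 5.72%), namely NDUFA13, NDUFS7, COX6B2, ATP5F1D and ATP5ME. Among the 55 members marked in both lists, the widest marking peak was narrower in the knockdown at 34, wider at 17 and equal at 4, with a median ratio of 0.886. Over all 12677 genes marked in both lists it was narrower at 64.6% and wider at 32.2%, with a median ratio of 0.848. The smallest ratios among members were 0.043 at COX8A and 0.128 at NDUFB10, and count only peaks within 2 kb of the gene ends. Against the widest knockdown peak anywhere in the same span the ratios were 0.793 and 0.617.

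Neighbouring genes shared many of these peaks. Of the 76 wild-type peaks and 86 knockdown peaks that marked members, 51 in each list also lay over another protein-coding gene. Of the 68 members with a matched start, 21 had a second protein-coding start on the opposite strand within 1 kb, among them NDUFS1 with EEF1B2, COX4I1 with EMC8, UQCRQ with GDF9, NDUFA8 with MORN5 and ATP5PF with GABPA. A peak over such a start cannot be assigned to either gene. Shared peaks and opposite-strand starts were not counted over all protein-coding genes, so whether members differ in them from genes in general is unknown.

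The 12 members on chromosome 19 carried much of the coverage. Their mean was 18.6 kb in wild-type cells and 16.8 kb in the knockdown, and 11 of them, all but UQCRFS1, were marked in both lists. The 74 members on other chromosomes had means of 6.66 and 6.13 kb. All 1451 protein-coding genes of chromosome 19 had means of 15.04 and 12.5 kb, against 8.58 and 7.57 kb for genes elsewhere. Both lists marked 1073 of the 1451. Each list marked 91.7% of the 12 members, against 78.8% of all chromosome 19 genes in wild-type cells and 76.8% in the knockdown.

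Promoters with a peak were richer in CpG, in members as in all genes. The 250 bases before the start held a median of 22.5 CpG in the 40 members with a promoter peak in both lists, 15 in the 5 with one in the wild type alone, 22 in the 8 with one in the knockdown alone and 12 in the 15 with none. Over all protein-coding genes the medians were 22, 15, 17 and 4. Members without a promoter peak thus held more CpG than genes without one in general, with UQCRFS1 at 27. The knockdown-only promoters of SDHB, SDHD and NDUFS1 held 24 each, and NDUFB4, with no peak in either list, held 22.

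These classes count a peak over any listed start of a gene, while CpG was counted before the start nearest the gene end. Counting peaks over that same start alone moved 3 members: COX7A2 and COX7A2L, whose peaks lay over inner starts, to the class without a peak, and NDUFC1 to the knockdown alone. The median CpG counts of the members were then 23, 16.5, 22 and 12, for 39, 4, 8 and 17 genes.

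**Figure D5:**
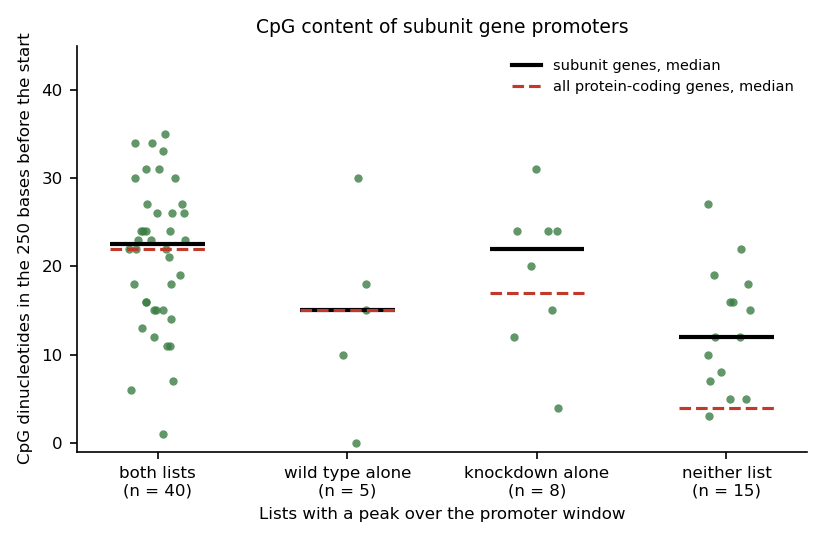
CpG dinucleotides in the 250 bases before the start (y axis) of the 68 subunit genes with a matched start, by the lists with a peak over the promoter window of any listed start (x axis); each point is a gene, black bars are medians of the subunit genes and dashed red lines medians of all protein-coding genes. The medians of subunit genes run from 12 without a promoter peak to 22.5 with one in both lists.

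The NRF1 motif was in 22.1% of the members' 250-base windows (15 of 68), against 7.69% of all protein-coding genes, and the ETS motif in 23.5% (16), against 11.9%. The SP1 motif was in 27.9% (19), against 42.9%, and the YY1 motif in 1.47% (1, ATP5PF), against 1.43%. As the sequences above show, NRF1 matches stood in SDHA and UQCR11 with peaks in both lists, in SDHD with a peak in the knockdown alone and in NDUFB4 with none. None of the 5 members with a promoter peak in the wild type alone held an NRF1 match. Among the 8 with one in the knockdown alone, SDHD was the only holder. Of those without a promoter peak, ATP5PO, COX8C, NDUFA9, NDUFA12 and UQCRFS1 held a match besides NDUFB4. The classes with a peak in a single list are too small to set against the 22.1% of all members.

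Genes that work with the subunits were listed by function for comparison. Of the 56 assembly factors, which build the complexes without being part of them, peaks marked 41 in wild-type cells (73.2%) and 48 in knockdown cells (85.7%), with 1 in the former alone (SDHAF4) and 8 in the latter alone. Over all protein-coding genes the shares were 71% and 71.1%, with 4.73% and 4.84% in a single list. These 8 were BCS1L, COX18, COX20, NDUFAF7, SCO1, SDHAF2, TACO1 and UQCC6. SDHAF2, which inserts the flavin into SDHA, had no base in peaks in wild-type cells and 7.6 kb in the knockdown, while SDHAF4 had 3.4 and 0 kb. UQCC6 and BCS1L, both factors of complex III, had none in wild-type cells and 5.2 and 3.2 kb in the knockdown. The factors' mean covered length was nevertheless shorter in the knockdown, at 6.13 against 6.93 kb. By the mean of both lists, the longest covered lengths were at COX19 (22.3 and 20.5 kb) and ECSIT (19.8 and 23.7 kb).

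The 17 enzymes of the citrate cycle and of pyruvate entry had 15 genes marked in both lists (88.2%, against 66.3% of all protein-coding genes). None was marked in a single list, and the means were 7.502 and 5.22 kb. PC, pyruvate carboxylase, had 30.8 and 17.0 kb, and IDH2, a mitochondrial isocitrate dehydrogenase, 20 and 11.2 kb. Of the 17 regulators of mitochondrial genes, 13 were marked in both lists and none in a single list, with means of 9.30 and 7.43 kb. ESRRA, a nuclear receptor, had 27.2 and 27.6 kb, and POLRMT, the mitochondrial RNA polymerase, 19.7 and 17.3 kb.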

How the data were processed

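H2AK119ub was profiled by chromatin immunoprecipitation and sequencing in wild-type and YTHDF1 knockdown H1 cells, with 1 library each; the groups were read from the sample titles, and the 2 input libraries were not analysed here. SICER 1.1, MACS2 2.1.0, Bowtie2 2.2.5, Trimmomatic 0.35, Picard and SAMtools 1.3.1 and the build hg38 are listed, without role or order, per the submitters' processing notes. Not given in the sources used here: which of them called the peaks, at which threshold, and whether the input was used. Deposited files give a position and a score per peak; the score is the authors' own, its unit is not stated, and it runs from 2.00 to a ceiling of 1000. Starts and ends lie on a 200 bp grid, and ends were read as inclusive. No counts are given, so depth is unknown and no interval or limit could be computed. A peak in 1 list alone can be a region just under the threshold in the other library.

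Gene positions came from a RefSeq table of GRCh38.p14, which shares coordinates with hg38. Covered length counts the peak bases in windows of 10 kb on each side of both gene ends, with overlapping windows merged, and a shared base was enough to call a gene marked within 2 kb. Strand, starts and promoter sequence came from a RefSeq promoter table; 68 members were matched; those not matched include ATP5F1B, ATP5F1D, ATP5MC3, ATP5MF, ATP5MF-PTCD1, ATP5MGL, COX4I2, COX6C, COX7A1, CYC1, NDUFB5, NDUFB9, NDUFC2, NDUFS5, SDHC, UQCRB and UQCRHL. A gene with several listed starts had a promoter peak when any of its windows met a peak; motifs, CpG and profiles used the start nearest the gene end. No test was run. The interval functions were tested on simulated data. Python 3.11.15, numpy 2.4.6, pandas 2.3.3 and matplotlib 3.10.9 were used.

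Members, gene lists and motifs were chosen with earlier results of these data known. Named genes were those marked in 1 list, the 2 with the longest covered length in each complex, the 10 largest increases and decreases of at least 1 kb, isoform pairs, and, in related lists, genes marked in 1 list and the 2 longest. Other members are named with their values, except 1 that is counted in all totals and not reported here by itself. Alternatives were windows of 5 kb, the upper 50% of peaks by score, peaks of 2 kb or more, lists of equal length and a 200 bp minimum overlap.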

Additional observations from a re-analysis of the deposited data

How the results depend on the processing

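No paired analysis was possible because each group had 1 H2AK119ub library. Of 38 recomputed counts of members marked or with a promoter peak, 33 stayed within 1.5 times the reported count. The 5 others came from the upper 50% of peaks by score, where 39 members were marked in the wild type, 36 in both lists and 3 in the wild type alone, and where 28 members had a promoter peak in wild-type cells and 31 in the knockdown. The count marked in the knockdown alone was then 6. It was 7 with peaks under 2 kb left out, where the wild-type list alone also marked 7. The mean difference in covered length was negative under each alternative. It was -0.321 kb with 5 kb windows, -0.481 kb with the upper 50% of peaks, -0.767 kb without peaks under 2 kb and -0.86 kb with lists of equal length. It was -0.635 kb without the 2 read-through genes and -0.851 kb without SDHB, both chosen after the data were seen. With 1 start per gene, also chosen then, 43 members had a promoter peak in wild-type cells and 47 after knockdown. In percent of the wild-type mean it ran from -6.09% to -10.3% across these settings, and that of all protein-coding genes from -10.8% to -13.7%. The cause of the moves was not tested. Without depth, no difference between the lists can be separated from the sensitivity of the peak calls.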

Other observations

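A few subunit genes stood outside the chosen set by name or chromosome. NDUFA4 and NDUFA4L2 stand in the gene table under the names COXFA4 and COXFA4L2, so the symbol rule left them out. COXFA4 (chromosome 7) had no base in peaks within 10 kb in either list, while COXFA4L2 (chromosome 12), an isoform known from hypoxic cells, had 24.9 kb in wild-type cells and 23.1 kb in the knockdown and was marked in both. Of the X-linked subunit genes, NDUFA1 had 2.4 kb in wild-type cells and none in the knockdown, NDUFB11 none in wild-type cells and 1.6 kb in the knockdown, and COX7B none in either.

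Oxidative phosphorylation genes have left many pseudogenes. Of 177 autosomal pseudogenes whose symbols begin like those of the members, 29 were marked in wild-type cells (16.4%) and 26 after knockdown (14.7%), with 24 marked in both. Among all 15521 autosomal pseudogenes the shares were 11.7% and 11.3%. No base within 10 kb lay in a peak of either list at 110 of the 177. Their mean covered length was 2.07 kb in wild-type cells and 1.85 kb in the knockdown, far under the 8.33 and 7.62 kb of the members. Here too the window size depends on the length of the gene. ATP5MFP5 on chromosome 12 had 17.4 and 16.04 kb, and ATP5MGP1 on chromosome 11 had 18.9 and 15.2 kb; both were picked after their values were seen.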
